A study of Mus musculus with 12 samples.

Results

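Genes for antimicrobial proteins of the skin were followed in mouse ears injected with cytokines. The 10 genes were chosen by name, with earlier results of these data known. They comprised S100a8 and S100a9, which encode the subunits of calprotectin, Lcn2, Lpo, the beta-defensin genes Defb1, Defb3, Defb4, Defb6 and Defb14, and Camp. Their symbols were matched through the authors' pairing of symbols and Ensembl identifiers, and they were 10 of the 50684 genes counted. A filter on low counts left 19408 genes for testing. It kept 9 of the 10 genes and removed Camp.

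RNA-Seq was performed on the ears of 8-week-old female C57BL/6 mice, a common inbred strain. Ears were taken after 4 days of treatment, in which 5 µl of PBS was injected into the dermis, either alone or with 1 µg of recombinant IL-17A, with 1 µg of recombinant IL-36γ, or with 1 µg of each, the group named IL-17A + IL-36γ and also called the combination. How often the injection was repeated in these days is not given in the sources used here. The dose of the combination is that of the labels, whereas the study's methods give a dose of cytokine per ear without saying whether it was that of each cytokine or their sum, which bears on every comparison of the combination with the single cytokines. Of the 5 mice of each group, 3 were selected at random by the study and sequenced, so that n was 3 for every mean below. The study asked how the cytokines act alone and together in psoriasis-like skin inflammation.

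Epithelial cells and neutrophils release antimicrobial proteins that kill microbes or withhold metals from them. Calprotectin is a dimer of S100A8 and S100A9 that binds zinc and manganese, lipocalin 2 (Lcn2) captures bacterial siderophores and thereby iron, and lactoperoxidase (Lpo) uses hydrogen peroxide to make oxidants that damage bacteria. Beta-defensins are short cationic peptides with disulfide bonds that disrupt microbial membranes, and Camp encodes the cathelicidin precursor. In psoriatic skin such proteins are abundant, and IL-17A and IL-36 cytokines are known inducers of several of them in keratinocytes.

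The total of counts per library lay between 25293468 and 34759293. Levels are given as CPM, counts scaled to library size with TMM factors, and changes as log2 fold changes of the quasi-likelihood test of edgeR with their standard errors (SE). Calls needed an absolute log2 fold change above 1 and a p-value below 0.05 after Benjamini-Hochberg adjustment over all tested genes. The labelled tissue showed its markers, since 8 keratinocyte genes summed to between 16952 and 37952 CPM in every library. Skeletal muscle genes were also present, and their sum was 409 CPM in PBS replicate 1 against 3493 and 3036 CPM in the other PBS libraries. PBS replicate 2 was the control with the highest S100a8 and S100a9. The tissue was bulk, so that a larger number of cells of a type and more RNA per cell cannot be told apart.

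Against PBS, IL-17A raised 4 of the 9 tested genes, namely S100a8, S100a9, Lcn2 and Defb6, where 1.07% of all tested genes were raised. IL-36γ raised 8 of 9 against a background of 5.11%, and IL-17A + IL-36γ raised the same 8 genes against a background of 7.35%. Defb1 was the gene not called in any of the 3. No gene of the group was lowered. Over the 9 genes the median log2 fold change was 2.72 with IL-17A, 5.82 with IL-36γ and 7.10 with the combination, while the medians over all tested genes were 0.04, -0.02 and -0.03. These 3 comparisons share the PBS mice. The genes were chosen with earlier results of these data known, and the study had picked out S100a8, Defb3 and Defb4 in these libraries. The counts are therefore not independent evidence of a direction. The group means were lowest in PBS, then in IL-17A, then in IL-36γ and highest in the combination for 9 of the 9 tested genes, an order found for 17.2% of all tested genes. Camp, which the filter removed, did not have this order. Defb3 and Defb4, with few counts in PBS, passed the filter through the treated groups. Lpo, with 23, 44 and 9 counts in PBS, also needed libraries of the treated groups to pass. The counts of genes raised and of genes in this order thus depend in part on the filter.

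**Figure D1:**
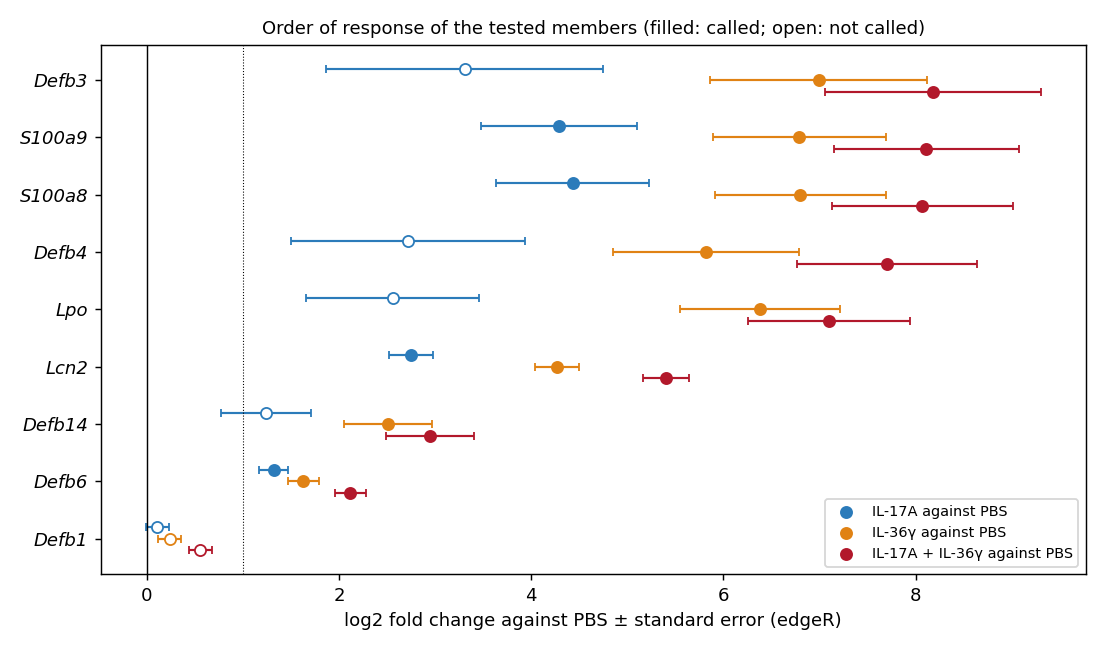
Log2 fold change against PBS on the horizontal axis for the 9 tested antimicrobial genes, with bars for the standard error of the edgeR fit (3 mice per group). Blue, orange and red points stand for IL-17A, IL-36γ and the combination, filled where the gene was called, and the dotted line marks a log2 value of 1. Genes are sorted by the change after both cytokines, from Defb3 at 8.18 down to Defb1 at 0.56, and in each row IL-36γ lies to the right of IL-17A.

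Lcn2 (ENSMUSG00000026822, chr2:32384633-32388252 on the minus strand of GRCm38) rose in each of the treatments. Its level in PBS was 2.10, 3.57 and 1.85 CPM in replicates 1 to 3. It was 19.1, 16.5 and 15.2 CPM after IL-17A, 45.8, 61.2 and 38.7 CPM after IL-36γ, and 118.0, 100.3 and 100.4 CPM after IL-17A + IL-36γ. No library of any group overlapped with another group, and each step in the order was an increase. The means of 2.51 ± 0.927, 17.0 ± 1.98, 48.5 ± 11.5 and 106.2 ± 10.2 CPM (SD, n = 3) gave ratios to PBS of 6.77, 19.4 and 42.4. By edgeR the log2 fold change against PBS was 2.75 after IL-17A (SE 0.23, adjusted p = 0.000483), 4.27 after IL-36γ (SE 0.23, adjusted p = 3.83e-06) and 5.40 after both (SE 0.24, adjusted p = 7.08e-07). Lcn2 and Defb6 were the genes whose call after IL-17A held in all 20 alternative analyses, including every omission of a single library.

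IL-36γ and IL-17A differed directly for Lcn2, with a log2 fold change of 1.52 (SE 0.20, adjusted p = 0.00306). The combination lay above IL-36γ alone by 1.13 on the log2 scale (SE 0.19), which was not called at an adjusted p of 0.0927. This value passed the threshold without replicate 2 of IL-36γ (1.33, adjusted p = 0.025), without replicate 3 of the combination (1.18, adjusted p = 0.0481) and with DESeq2 (1.14, adjusted p = 0.000572). Lcn2 was also the 1 gene of the 9 with a called interaction, that is, a different effect of IL-17A with IL-36γ than without it. The interaction was -1.62 (SE 0.30, adjusted p = 0.0475), where 0.423% of all genes had a lowered interaction: IL-17A multiplied Lcn2 by less when IL-36γ was present. The call was lost in 11 of 19 alternatives, among them the omission of 9 of the 12 libraries in turn (PBS replicate 3, and all libraries of the other groups but IL-36γ replicate 2), where the value lay between -1.75 and -1.44 with an adjusted p of up to 0.145.

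Lpo (ENSMUSG00000009356, chr11:87806428-87828289, minus strand) showed the widest gap between the single cytokines. In PBS it reached 0.637, 1.25 and 0.273 CPM. After IL-17A the libraries held 9.47, 0.632 and 2.90 CPM, so that replicate 2 lay within the range of PBS. After IL-36γ they held 63.5, 89.1 and 29.6 CPM, and after both cytokines 154, 66.9 and 80.3 CPM, with overlap between these last groups. The change against PBS was 2.56 after IL-17A (SE 0.90, adjusted p = 0.0811), 6.38 after IL-36γ (SE 0.83, adjusted p = 0.000342) and 7.10 after both (SE 0.84, adjusted p = 7.71e-05) in the edgeR fit. The value after IL-17A was 1.19 without IL-17A replicate 1 (adjusted p = 0.48) and 3.20 without PBS replicate 2 (adjusted p = 0.137), and it was called by DESeq2 (2.58, adjusted p = 0.0335) and without the filter (2.52, adjusted p = 0.0361). IL-36γ exceeded IL-17A by 3.82 (SE 0.69, adjusted p = 0.0104), the largest of the 9 direct differences, and this call held in all 19 alternatives. The combination differed from IL-36γ by 0.72 (SE 0.58, adjusted p = 0.577), which was not called.

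Peroxidases of blood cells were near the detection limit. Mpo, the peroxidase of neutrophil granules, was listed with at most 7 counts in any library and Epx of eosinophils with at most 2, and neither passed the filter. Of the 11 genes of a list of heme peroxidases and sources of hydrogen peroxide, 8 were tested. After IL-17A, IL-36γ and both, 0, 1 and 1 of them were raised, against 1.07%, 5.11% and 7.35% of all tested genes. The 1 raised gene was Cybb, the catalytic subunit of the phagocyte oxidase, at 26.2 ± 3.59 CPM in PBS and 88.8 ± 19.2 CPM after both (log2 1.76, SE 0.17, adjusted p = 2.13e-05). Duox2, an epithelial enzyme that supplies hydrogen peroxide to peroxidases, fell by 1.48 on the log2 scale after both cytokines (SE 0.24, adjusted p = 0.000476). Its maturation factor Duoxa2 fell by 1.56 (SE 0.46, adjusted p = 0.0167), at 2 to 4 counts per library after both. The median log2 fold change of the 8 genes after both was -0.08.

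The beta-defensin genes lay on chromosome 8, and 4 of them formed a cluster of 100.9 kb in which Defb14 (chr8:19194357-19195212), Defb4 (chr8:19198706-19201545), Defb6 (chr8:19225478-19228209) and Defb3 (chr8:19293360-19295291) followed each other on the plus strand. Defb1 (chr8:21776599-21795185) stood 2481.3 kb away from Defb3. No other annotated gene overlapped with any of the 10 genes, and none of their windows of 76 bases, the read length, occurred in another gene. Another 38 genes have a Defb symbol, of which none passed the filter, 25 had no count in any library and the highest count was 10 (Defb5, IL-36γ replicate 2). The defensin signal of the ear thus came from 5 genes.

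Defb6 and Defb3 are shown with the 250 bases before their starts because these stretches were alike while the genes responded very differently. The windows are chr8:19293111-19293360 for Defb3 and chr8:19225228-19225477 for Defb6 (GRCm38, plus strand, sequences from RefSeq), and capitals mark runs of at least 12 bases that both share.
Defb3: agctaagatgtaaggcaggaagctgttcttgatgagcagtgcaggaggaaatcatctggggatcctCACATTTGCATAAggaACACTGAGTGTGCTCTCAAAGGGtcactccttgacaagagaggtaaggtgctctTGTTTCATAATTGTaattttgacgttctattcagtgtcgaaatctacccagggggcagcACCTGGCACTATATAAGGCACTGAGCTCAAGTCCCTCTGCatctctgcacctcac
Defb6: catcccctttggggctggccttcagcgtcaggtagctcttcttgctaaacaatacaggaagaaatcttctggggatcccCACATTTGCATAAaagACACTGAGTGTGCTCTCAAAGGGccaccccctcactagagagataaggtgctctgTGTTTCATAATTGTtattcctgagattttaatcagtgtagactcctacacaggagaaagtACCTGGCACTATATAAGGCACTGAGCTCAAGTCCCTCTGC
The pair had 72.5% identity over 265 aligned columns, with 90 bases in shared runs and a longest shared run of 40 bases, whereas the other 20 pairs among the 7 genes with a RefSeq window had identities of 41.7% to 50.0%. Defb1, Defb4 and Defb14 had no such window. Defb3 and Defb6 were therefore the only pair of defensin genes compared, and whether their likeness is particular to them was not tested. Both windows held the letters TTGCNNAA of a C/EBP motif, searched on both strands, inside a stretch that also holds the octamer letters ATTTGCAT. TTGCNNAA was found in 4 of the 7 windows (Lcn2, S100a9, Defb3 and Defb6), against 9.56% of 32851 windows of the same length, and ATTTGCAT in Defb3 and Defb6, against 1.6%. The single form of the NF-κB motif that was searched and the letters TGANTCA of AP-1 were in 0 of the 7 windows. They were in 4.65% and 6.75% of all windows. Other forms of the NF-κB motif were not searched, so the windows, that of Defb6 included, may hold them.

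Defb6 (ENSMUSG00000050756) was the most abundant defensin before any cytokine and had the smallest log2 fold change of the 8 genes raised by the combination. It was present at 95.5, 82.1 and 75.3 CPM in PBS, 166, 215 and 249.9 CPM after IL-17A, 254, 287 and 243 CPM after IL-36γ, and 433, 333 and 331 CPM after both. The IL-17A and IL-36γ libraries overlapped with each other, and both lay above PBS and below the combination. IL-17A raised Defb6 by 1.32 on the log2 scale (SE 0.15, adjusted p = 0.00354) and IL-36γ by 1.63 (SE 0.16, adjusted p = 5.59e-05) in the edgeR fit. The combination raised it by 2.12 (SE 0.16, adjusted p = 6.76e-06), a ratio of means of 4.33. IL-36γ against IL-17A gave 0.31 (SE 0.15, adjusted p = 0.223), and the combination against IL-36γ 0.48 (SE 0.15, adjusted p = 0.191), and neither was called. The combination against IL-17A gave 0.80 (SE 0.15, adjusted p = 0.00251), which passed the p-value but not the fold threshold.

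Defb14 (ENSMUSG00000046354), the ortholog of human beta-defensin 3, was raised by IL-36γ and by the combination. Its levels were 2.02, 1.22 and 1.03 CPM in PBS and 4.28, 2.39 and 3.46 CPM after IL-17A. They were 8.88, 11.4 and 4.13 CPM after IL-36γ and 15.4, 5.27 and 12.6 CPM after both. Neighbouring treatments overlapped, whereas each treated group lay above PBS. The log2 fold change was 1.24 after IL-17A (SE 0.47, adjusted p = 0.101), 2.51 after IL-36γ (SE 0.46, adjusted p = 0.00236) and 2.95 after both (SE 0.46, adjusted p = 0.000398) in the edgeR fit. IL-36γ against IL-17A was 1.27 (SE 0.43, adjusted p = 0.0897) and was called without IL-36γ replicate 3, the lowest library of its group (1.60, adjusted p = 0.0443).

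Defb1 (ENSMUSG00000044748), a defensin that many epithelia produce constitutively, was not called in any comparison. PBS libraries held 29.0, 25.9 and 26.2 CPM and IL-17A libraries 29.98, 27.0 and 30.4 CPM. IL-36γ libraries held 36.6, 31.0 and 28.4 CPM, and those of the combination 46.5, 35.8 and 37.2 CPM. The groups overlapped except that the combination lay above PBS and above IL-17A. By edgeR the combination differed from PBS by 0.56 (SE 0.12, adjusted p = 0.00218), under the fold threshold. At this adjusted p-value alone 9 of the 9 genes rose after both cytokines, where 23.7% of all genes did. The changes of 0.11 after IL-17A (SE 0.12, adjusted p = 0.555) and 0.24 after IL-36γ (SE 0.12, adjusted p = 0.13) did not pass the p-value threshold, and that after IL-17A turned to -0.06 when the libraries were scaled by their size only, which moved the median of all genes to -0.13.

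Defb3 (ENSMUSG00000039775) and Defb4 (ENSMUSG00000059230, ortholog of human beta-defensin 2) started from 1 to 7 counts per PBS library, so that their ratios to PBS have large errors. Defb3 had 0.0830, 0.198 and 0.0303 CPM in PBS, 2.03, 0.632 and 0.603 CPM after IL-17A, 11.7, 26.4 and 3.34 CPM after IL-36γ, and 62.4, 12.0 and 21.1 CPM after both. Defb4 had 0.0830, 0.198 and 0.0606 CPM in PBS, 1.54, 0.166 and 0.684 CPM after IL-17A, 4.69, 13.04 and 2.31 CPM after IL-36γ, and 42.3, 17.8 and 14.1 CPM after both. Both spread more within a group than Defb6 did, and IL-17A replicate 2 was within the PBS range for Defb4. The log2 fold changes after IL-17A were 3.31 (SE 1.44) for Defb3 and 2.72 (SE 1.22) for Defb4, with adjusted p-values of 0.142 and 0.153 by edgeR, and 0.0132 and 0.0312 by DESeq2. Without IL-17A replicate 1 they were 2.48 and 1.75. After IL-36γ and after both they were 6.99 and 8.18 for Defb3 (adjusted p = 0.00117 and 0.000169) and 5.82 and 7.70 for Defb4 (adjusted p = 0.00135 and 9.26e-05). IL-36γ exceeded IL-17A by 3.67 for Defb3 (adjusted p = 0.0235) and 3.09 for Defb4 (adjusted p = 0.0297). These 2 calls were lost without IL-36γ replicate 2 (2.79 and 2.16, adjusted p = 0.101 and 0.13), without IL-17A replicate 2 (3.39 and 2.59, adjusted p = 0.113 and 0.125) and without IL-17A replicate 3 (3.40 and 3.01, adjusted p = 0.0694 and 0.0767).

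S100a8 (ENSMUSG00000056054, chr3:90668978-90670035, plus strand) and S100a9 (ENSMUSG00000056071, chr3:90692632-90695721, minus strand) are 22.6 kb apart and moved as a pair. S100a8 had 3.82, 31.5 and 2.24 CPM in PBS, 360.0, 148 and 303 CPM after IL-17A, 1339, 1936 and 922 CPM after IL-36γ, and 3767, 3175 and 3135 CPM after both. No groups overlapped, and PBS replicate 2 stood far above the other controls. The ratio of S100a9 to S100a8 counts was between 1.27 and 1.61 in all 12 libraries, with a median of 1.42, while S100a8 itself ranged from 2.24 to 3767 CPM. By contrast, the ratio of Defb3 to Defb4 ranged from 0.5 to 3.8, and that of Defb3 to its neighbour Defb6 from 0.000402 in PBS replicate 3 to 0.144 in IL-17A + IL-36γ replicate 1. The changes of S100a8 were 4.43 after IL-17A (SE 0.80, adjusted p = 0.0151), 6.80 after IL-36γ (SE 0.89, adjusted p = 0.000347) and 8.07 after both (SE 0.94, adjusted p = 6.79e-05) by edgeR, and those of S100a9 were 4.29, 6.79 and 8.11. Without PBS replicate 2, the control with the highest level, they were 6.46, 8.84 and 10.11 for S100a8 and 6.33, 8.85 and 10.17 for S100a9, with adjusted p-values after IL-17A of 0.000216 for both. The IL-17A calls of S100a8 and S100a9 were lost without PBS replicate 3 (3.93 and 3.79, adjusted p = 0.0782 and 0.0848) and without IL-17A replicate 1 (4.14 and 4.02, adjusted p = 0.067 and 0.0747), and in a fit of only PBS and IL-17A (4.39 and 4.25, adjusted p = 0.0749 and 0.0752).

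**Figure D2:**
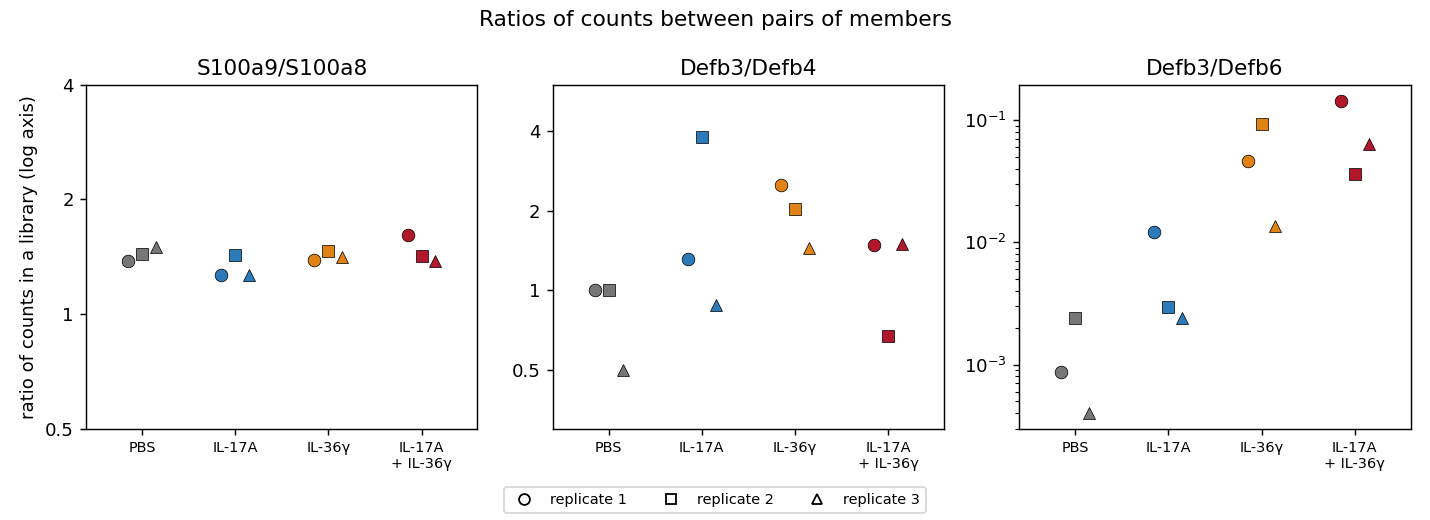
Ratio of the counts of a pair of genes in each of the 12 libraries, on log axes that differ in range between panels, with the 4 groups on the horizontal axis and symbols for replicates 1 to 3. S100a9 to S100a8 stays between 1.27 and 1.61 and Defb3 to Defb4 between 0.5 and 3.8, whereas Defb3 to Defb6 climbs from 0.000402 to 0.144 across the groups.

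Camp (ENSMUSG00000038357, chr9:109847379-109849617, minus strand) did not follow the other genes. It had 8, 7 and 13 counts in PBS, 8, 19 and 8 counts after IL-17A, 8, 2 and 2 counts after IL-36γ, and 8, 2 and 4 counts after both. These levels were under 1 CPM in every library, and a count of 8 occurred in all groups. Its mean was lowest in IL-36γ and highest in IL-17A, with the combination below PBS. Fitted without the filter, edgeR gave 0.61 after IL-17A (SE 0.51, adjusted p = 0.6), -1.04 after IL-36γ (SE 0.61, adjusted p = 0.309) and -0.69 after both (SE 0.59, adjusted p = 0.491). Camp started from 7 to 13 counts per PBS library, against 1 to 7 for Defb3 and Defb4, and its values against PBS lay below those of the 8 genes raised by the combination.

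**Figure D3:**
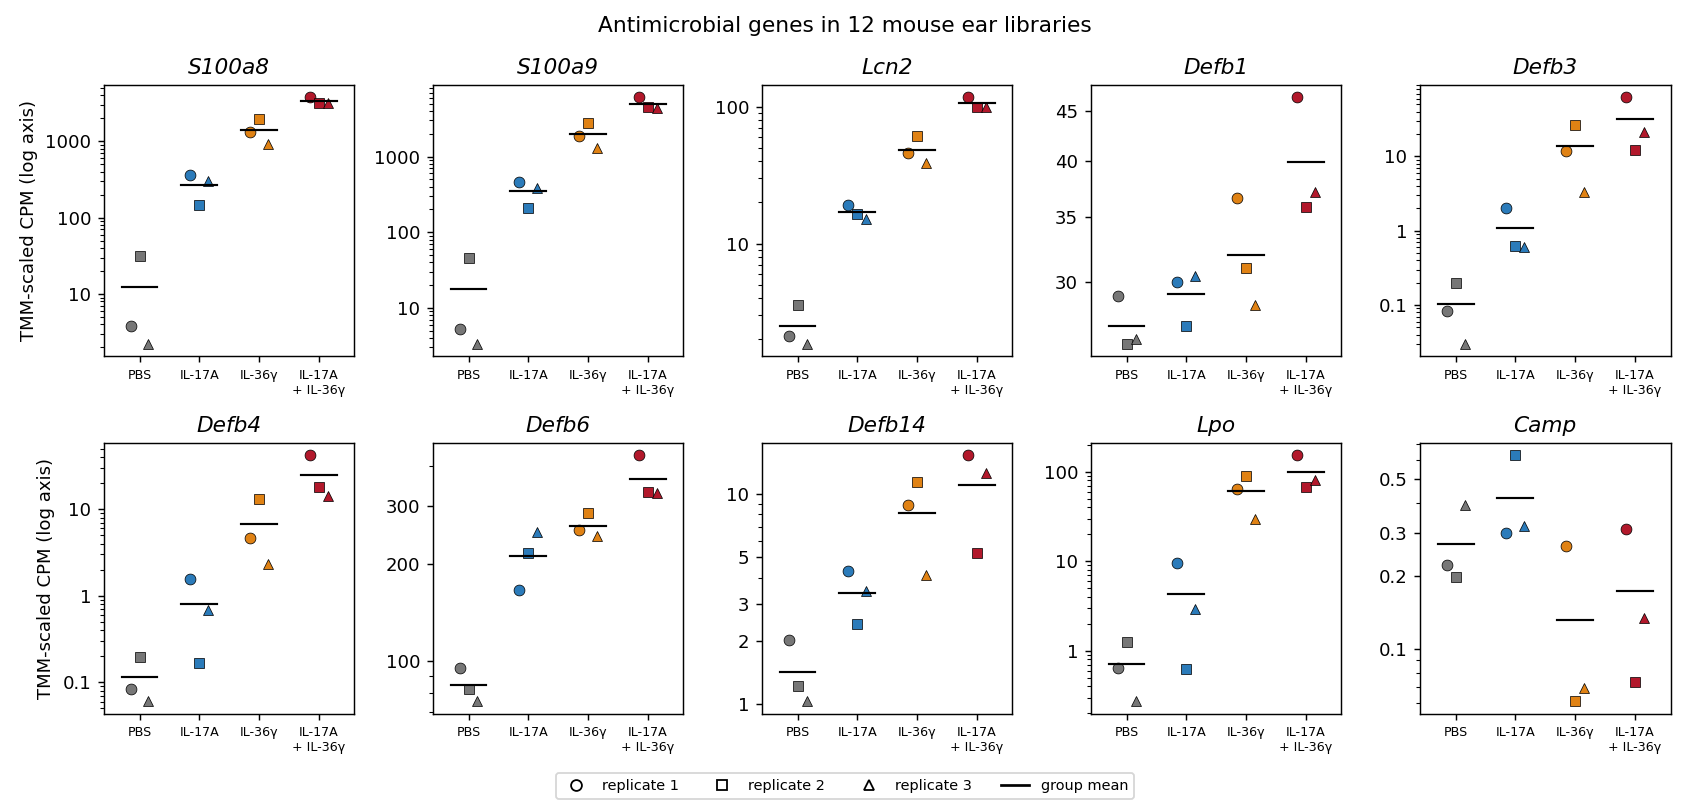
TMM-scaled CPM of the 10 genes in the 12 libraries, on log axes with a range of their own for each gene, with the 4 groups on the horizontal axis, symbols for replicates 1 to 3 and a line for the group mean. The panels climb from left to right except for Camp, and the scale of Defb1 covers only 25.9 to 46.5 CPM while that of S100a8 covers 2.24 to 3767 CPM.

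The order of the genes by level changed with treatment. Per kilobase of exon, which allows levels of different genes to be compared, Defb6 led in PBS with 261 ± 31.9 CPM per kb, ahead of S100a9 with 34.4 ± 45.3 and Defb1 with 31.0 ± 1.95, and the last 2 did not differ beyond their spread. After IL-17A, S100a9 with 671 ± 242 and Defb6 with 651 ± 129.96 CPM per kb were level within their spread, with S100a8 at 390 ± 158.4. After both cytokines, S100a9 reached 9530 ± 1840 and S100a8 4840 ± 510.4 CPM per kb, and Defb6 followed with 1131 ± 180.2 ahead of Defb3 with 116 ± 97.7. Lcn2 and Lpo, with 40.5 ± 3.88 and 32.0 ± 15.003 CPM per kb after both, came near Defb1 with 45.7 ± 6.69 on this scale, from 0.956 ± 0.354 and 0.229 ± 0.157 in PBS. Exon length here is the union over all annotated transcripts, and it is long for Lcn2 (2623 bases) and Lpo (3135 bases).

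The order of the genes by estimated size of response differed between the cytokines, in part within the errors. After IL-17A the largest log2 fold changes were those of S100a8 and S100a9 with 4.43 and 4.29, followed by Defb3, Lcn2, Defb4 and Lpo between 2.56 and 3.31. With standard errors of 1.44, 0.23, 1.22 and 0.90, respectively, the ranks 3 to 6 of these genes cannot be told apart. After IL-36γ, Defb3, S100a8, S100a9, Lpo and Defb4 lay between 5.82 and 6.99, apart by little more than their standard errors of 0.83 to 1.13. Lpo thus stood at rank 6 of 9 after IL-17A and at rank 4 after IL-36γ, and Lcn2 at rank 4 and rank 6, where the ranks after IL-17A lay within the errors. Defb14, Defb6 and Defb1 took the last 3 ranks in all comparisons with PBS, and Defb6 stood above Defb14 only after IL-17A. As a share of the log2 change after both cytokines, IL-17A alone gave 62.4% for Defb6, 54.9% for S100a8, 52.8% for S100a9 and 51.0% for Lcn2, but 36.0% for Lpo and 35.4% for Defb4. IL-36γ alone gave between 75.6% (Defb4) and 89.8% (Lpo) for the 8 raised genes. The IL-17A values of Lpo, Defb3 and Defb4, and with them these shares and ranks, rested in part on IL-17A replicate 1, without which they were 1.19, 2.48 and 1.75. Differences between genes in these shares were not tested.

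In direct comparison IL-36γ raised 4 of the 9 genes above IL-17A, namely Lpo, Lcn2, Defb3 and Defb4, where 1.25% of all genes were raised. S100a8 and S100a9 missed the threshold with 2.37 and 2.51 (adjusted p = 0.0642 and 0.0577), although no IL-36γ library overlapped with IL-17A. They were called without any 1 of the PBS libraries, with adjusted p-values for S100a8 of 0.0327, 0.00442 and 0.0385 and for S100a9 of 0.028, 0.00341 and 0.0349 without PBS replicates 1, 2 and 3. Against IL-17A, the combination raised 7 genes (background 4.46%), with Defb6 and Defb1 under the fold threshold. Against IL-36γ it raised 0 genes by edgeR, where the share over all genes was also 0.0%. At an unadjusted p-value below 0.05 there were 4 genes, Lcn2, Defb4, Defb6 and Defb1, where 5.6% of all genes were higher at this p-value, and DESeq2 called 1, Lcn2. All libraries of the combination lay above all IL-36γ libraries for 5 of the 9 genes (S100a8, S100a9, Lcn2, Defb4 and Defb6), where 9.33% of all genes did so.

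On the log2 scale the change after both cytokines was smaller than the sum of the single changes for 8 of the 9 genes, with interactions from -3.17 (S100a8, SE 1.01, adjusted p = 0.107) to -0.79 (Defb14, SE 0.62, adjusted p = 0.466), and 1 of them, Lcn2, was called by edgeR. The median interaction over all tested genes was also below 0, at -0.07, and the values of the 9 genes come from the same mice. The sign of the Defb4 value (-0.85, SE 1.40) turned without IL-17A replicate 1 (0.14) or without IL-36γ replicate 2 (0.09). Defb6 had -0.84 (SE 0.21, adjusted p = 0.0707) and passed the threshold without PBS replicate 1 (-0.94, adjusted p = 0.03) and with DESeq2 (-0.82, adjusted p = 0.0169). There 1534 and 2490 of all genes, respectively, had a called interaction, against 107 in the main fit. S100a8 and S100a9 passed it without PBS replicate 2 (-5.19 and -5.00, both with an adjusted p of 0.00722), where 10 of all genes did. On the linear scale the same genes looked different. Lcn2 rose by 103.7 CPM after both cytokines and by 60.5 CPM as the sum of the single increases, an excess of 43.2 ± 8.96 CPM (SE). The excess was 41.7% of the combined increase for Lcn2, 50.9% for S100a8, 53.4% for S100a9 and 36.2% for Lpo (SE 8.64, 10.9, 14.4 and 32.3 percentage points). It was -7.86% for Defb6 (SE 15.6), where the single increases of 126 and 177 CPM together matched the combined increase of 281 CPM within its error. In CPM it was 17.4 for Defb4 (SE 9.42), 36.1 for Lpo (SE 32.3), 17.0 for Defb3 (SE 16.9), 5.76 for Defb1 (SE 4.39) and 0.98 for Defb14 (SE 3.74).

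**Figure D4:**
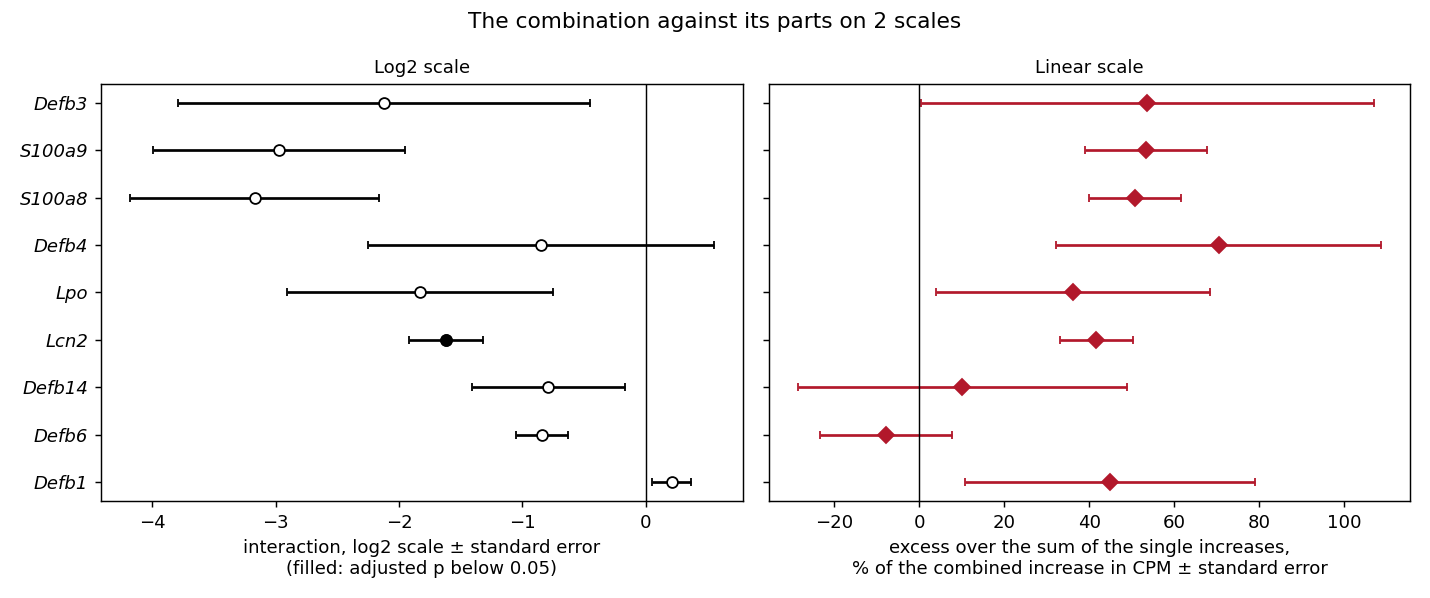
Left, interaction of IL-17A and IL-36γ on the log2 scale with its standard error (edgeR, 3 mice per group), and right, the excess of the combined increase over the sum of the single increases as a percentage of the combined increase in CPM, with its standard error, for the 9 tested genes. Values lie to the left of 0 for 8 genes on the log2 scale, with Lcn2 at -1.62 as the filled point, and to the right of 0 on the linear scale for all but Defb6 at -7.86%.

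The libraries of a group differed in a way that most of the genes shared. IL-17A + IL-36γ replicate 1 was the highest of its group for 9 of the 9 tested genes, IL-36γ replicate 2 for 8 and IL-17A replicate 1 for 7, and IL-36γ replicate 3 was the lowest of its group for 9. How often these libraries were highest or lowest over all tested genes was not counted, so a general difference between libraries cannot be told apart. Defb6 and Defb1 were the genes for which IL-17A replicate 3 was the highest. Markers of other cells moved with these libraries. The summed level of 8 neutrophil genes was 10.3 to 21.8 CPM in PBS, 26.8 to 77.6 after IL-17A, 64.3 to 97.0 after IL-36γ and 115 to 228 after both, and its highest library in each group was PBS replicate 2, IL-17A replicate 1, IL-36γ replicate 2 and replicate 1 of the combination. Of these genes 3, 6 and 8 of 8 were raised after IL-17A, IL-36γ and both, against 1.07%, 5.11% and 7.35% of all tested genes. Ly6g, a defining marker of neutrophils, was at 0 counts in PBS. The summed level of 4 keratin genes of activated keratinocytes was 325 to 526 CPM in PBS, 578 to 2236 after IL-17A, 2080 to 5487 after IL-36γ and 6261 to 10593 after both, with the same 4 libraries highest, and 0, 3 and 3 of the 4 genes were raised. The part of either cell type in the changes of the antimicrobial genes was not tested.

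Genes of neutrophil precursors, in which granule proteins such as those of Camp, Mpo, Elane, Ltf and Ngp are transcribed, stayed low. Their sum over 6 genes lay between 1.43 and 4.21 CPM in all libraries, Elane had at most 1 count, and 2 of the 6 were tested, with none raised against PBS and 1 lowered after IL-36γ and after both (Ltf and Ctsg, respectively). The sums of 6 macrophage genes were 523 to 600.5 CPM in PBS, 760 to 1028 after IL-17A, 1108 to 1273 after IL-36γ and 962 to 1167 after both, with 0, 4 and 3 raised. For 6 T cell genes the sums were 20.2 to 22.1, 22.3 to 26.6, 24.4 to 28.4 and 20.7 to 22.8 CPM, with 0, 3 and 2 raised. The 8 keratinocyte genes had 1, 1 and 2 raised and 0, 0 and 1 lowered. In the combination adipocyte (6 of 6), cartilage (4 of 5) and muscle genes (2 of 8) were lowered, and none of 8 sebaceous gland genes was called. Of all 19408 tested genes, 407, 1377 and 2603 were called after IL-17A, IL-36γ and both. Of these, 208, 992 and 1426 were raised (1.07%, 5.11% and 7.35% of those tested) and the rest lowered.

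**Figure D5:**
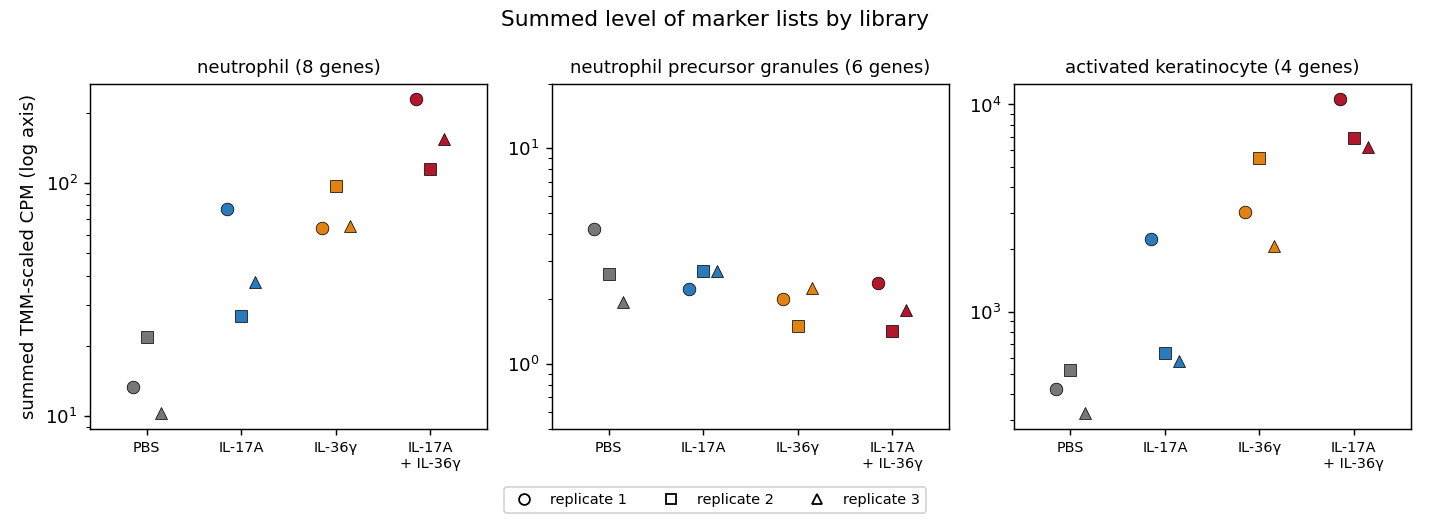
Summed TMM-scaled CPM of 3 marker lists in the 12 libraries on log axes, with the 4 groups on the horizontal axis and symbols for replicates 1 to 3. The neutrophil sum climbs from 10.3 to 228 CPM and that of activated keratinocytes from 325 to 10593 CPM, while that of neutrophil precursor granules stays between 1.43 and 4.21 CPM.

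Other antimicrobial genes gave a mixed picture. Of 24 further genes for secreted proteins of epithelia, 13 were tested, and 2, 7 and 8 were raised after IL-17A, IL-36γ and both, with 2 lowered after both. The median change of the 13 genes after both was 2.26. Over all tested genes 1.07%, 5.11% and 7.35% were raised. Of the 2603 genes called after both, 1426 were raised and the rest lowered. Saa3, an acute phase protein, rose from 0.710 ± 0.304 CPM in PBS to 20.6 ± 9.68 after IL-17A and 149.7 ± 16.1 after IL-36γ, and did not rise further with both (145 ± 52.5 CPM). Reg3g, a lectin against Gram-positive bacteria, was the other gene raised after IL-17A (3.33, SE 0.94, adjusted p = 0.044), from at most 4 counts per PBS library. S100a7a, the mouse psoriasin gene, rose after IL-36γ (3.54, SE 1.04, adjusted p = 0.0257) and after both (5.00, SE 1.04, adjusted p = 0.00239). Sprr2a1 had 0 to 3 counts in PBS and 17 to 31 after both. The 2 lowered genes, Retnla and Pla2g5, were named after their values were seen, with -2.47 (adjusted p = 0.0317) and -1.30 (adjusted p = 0.000113) in the edgeR fit.

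All 6 peptidoglycan recognition proteins and lysozymes were tested. After IL-17A, IL-36γ and both, 0, 2 and 3 of them were raised, against 1.07%, 5.11% and 7.35% of all tested genes. After both cytokines Pglyrp1 of neutrophil granules rose by 1.91 (SE 0.27, adjusted p = 0.000184), macrophage lysozyme Lyz2 by 1.37 (SE 0.10, adjusted p = 5.62e-06) and the epithelial Pglyrp3 by 1.32 (SE 0.27, adjusted p = 0.00221). Of 15 genes for antimicrobial proteins of neutrophil granules 10 were tested, of which 4, 7 and 8 were raised and 0, 1 and 1 lowered, with a median of 1.58 after both. This list shares Pglyrp1 and Lyz2 with the preceding list, Cybb with that of peroxidases, Mmp8 with the neutrophil markers and Ctsg with the precursor genes. The counts of these lists are therefore not separate results. Over all tested genes 407, 1377 and 2603 were called, of which 208, 992 and 1426 were raised and the rest lowered. Chil1, a chitinase-like protein, rose from 45.2 ± 13.3 CPM in PBS to 954 ± 127.5 CPM after both (log2 4.40, SE 0.22, adjusted p = 1.32e-06). Mmp8, the neutrophil collagenase, rose by 4.72 (SE 0.54, adjusted p = 6.02e-05) and Chil3 by 3.83 (SE 0.49, adjusted p = 0.000121). The lowered genes, named after their values were seen, were Ltf after IL-36γ (-2.65, adjusted p = 0.029, at 1 to 3 counts per library) and Ctsg after both (-1.11, adjusted p = 0.0328).

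Receptors and partners of these proteins were raised in part. Of 15 genes 13 were tested, and 2, 5 and 5 were raised after IL-17A, IL-36γ and both, with 1 lowered after IL-36γ (Mc1r, named after its value was seen, -1.46, adjusted p = 0.01). Over all tested genes 1.07%, 5.11% and 7.35% were raised. Of the 1377 genes called after IL-36γ, 992 were raised and the rest lowered. Fpr2, a formyl peptide receptor that also binds the cathelicidin peptide, rose by 5.28 after both (SE 0.71, adjusted p = 0.000159), and Fpr1 by 4.31 (SE 0.90, adjusted p = 0.00247). Ccr2, the chemokine receptor of monocytes that beta-defensins can engage, rose by 2.11 (SE 0.19, adjusted p = 1.86e-05), and Cd14, a partner of the calprotectin receptor TLR4, by 1.61 (SE 0.40, adjusted p = 0.00664). Tlr4 itself was not called, with 0.25 (adjusted p = 0.108), and IL-17A gave 0.44 (adjusted p = 0.0416), under the fold threshold.

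Of 26 regulators of antimicrobial genes 25 were tested, and 3, 10 and 11 were raised after IL-17A, IL-36γ and both, with none lowered and a median of 0.63 after both. The shares raised over all tested genes were 1.07%, 5.11% and 7.35%. The 3 raised after IL-17A were Fos, Zc3h12a and the IL-36α gene, listed as Il1f6. Il1f6 rose from 9.54 ± 3.18 CPM in PBS to 24.8 ± 5.37 with IL-17A, 84.4 ± 26.2 with IL-36γ and 131 ± 28.8 CPM with the combination, the same order as the antimicrobial genes. Il22, a cytokine that acts on keratinocytes, had at most 1 count in each PBS and IL-17A library, 5 to 39 counts after IL-36γ and 9 to 18 after both. Il17c, an epithelial cytokine of the IL-17 family, rose by 3.40 after IL-36γ (SE 0.46, adjusted p = 0.000413) and by 2.86 after both (SE 0.49, adjusted p = 0.000721), and had 0.09 after IL-17A (adjusted p = 0.956). Il17f rose by 2.61 (SE 0.76, adjusted p = 0.0236) and 2.80 (SE 0.75, adjusted p = 0.0102).

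The genes whose levels were most like each antimicrobial gene were sought among all tested genes by the Pearson correlation of log2 CPM over the 12 libraries, given as a description, since libraries of a group are not independent of its treatment. Lcn2 was most like Sirpb1a, Ifitm3 and Fam111a (r = 0.989, 0.989 and 0.987), and Lpo most like Rac2, Lst1 and Syk (r = 0.989, 0.987 and 0.986). Defb6 had Serpinb3b, a serine protease inhibitor of the epidermis, as its nearest gene (r = 0.994), followed by Arhgdib and Gm37703 (r = 0.979 and 0.977). For Defb14 they were Gm47128, Tbc1d13 and Ndufa4 (r = 0.973, 0.967 and 0.966), and for Defb1 A730085K08Rik, Atg7 and Tmem50b (r = 0.961, 0.955 and 0.954). Defb3 was most like Uox, Dhrs9 and Smox (r = 0.992, 0.99 and 0.986), and Defb4 like Apobr, Sema4d and Ccdc88b (r = 0.992, 0.99 and 0.99). S100a8 and S100a9 shared AI662270 and Ankk1 among their 3 nearest genes, with Ccr2 as the remaining one for S100a8 and Sirpb1a for S100a9 (r from 0.986 to 0.99).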

How the data were processed

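Ear RNA of 12 mice (3 per group) was analysed. Per the labels and the study's methods, the authors made stranded total RNA libraries, aligned paired reads of 76 bases to mm10 with STAR 2.5.2b and obtained counts per gene with Subread 1.5.1 (featureCounts). The strand setting and annotation release are not given in the sources used here. The authors deposited these counts as they were, with no scaling. Tables of the authors' own comparisons (DESeq2 fold changes and p-values) were not used, apart from the pairing of gene symbols and identifiers.

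Computations used R 4.3.3, edgeR 4.0.16, DESeq2 1.42.0, Python 3.11.15 and Biopython 1.88. Low counts were removed with filterByExpr (minimum count 10), TMM gave the scaling factors, and edgeR's quasi-likelihood test was run on the 4 group means in 1 fit of all 12 libraries, where the common biological coefficient of variation was 14.2%. DESeq2 with a likelihood ratio test was an alternative, besides other scalings, filters and thresholds, a replicate block, fits of 2 groups and omission of each library. Similarity of genes used a prior count of 2. Excess is the increase of mean CPM with the combination less the summed increases with the single cytokines, with an SE from the 4 group variances. Genes were placed with GENCODE vM21 (GRCm38). The test was checked on simulated data. No 2 libraries were copies, since the chi-square per gene within groups was 6.56 to 58.4. Counts of 3 or fewer in every library of a group were taken as a floor, and counting error is part of the spread tested.

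The 10 genes, the lists and the markers were chosen with earlier results of these data known. Named were the 10 genes, up to 4 genes per list with the largest absolute change after both cytokines among those called, and the 3 genes most correlated with each. Genes named after their values were seen are marked, and Mpo, Epx, Tlr4, Elane, Fos and Zc3h12a belong to these.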

Additional observations from a re-analysis of the deposited data

Results flagged for a closer look

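In the main fit Lcn2 differed in its change by IL-17A between ears with and without IL-36γ. The interaction was -1.62 on the log2 scale (SE 0.30, adjusted p = 0.0475, quasi-likelihood test of edgeR), with a change by IL-17A of 2.75 in the absence and 1.13 in the presence of IL-36γ, and Lcn2 was higher with IL-17A in 3 of 3 libraries against all 3 libraries of its control in both cases. The value stayed between -1.95 and -1.43 in 19 alternatives, with adjusted p-values from 0.000373 to 0.145. The call of the interaction was lost in 11 of these 19. The change of 1.13 in the presence of IL-36γ was itself not called by edgeR (adjusted p = 0.0927).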

How the results depend on the processing

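Over 63 results for single genes, 1229 values under alternatives were computed, of which 1172 kept their direction and side of the threshold, 23 lost the call, 31 gained it and 3 changed sign. The sign changes were Defb1 after IL-17A with library size only (-0.06) and the interaction of Defb4 without IL-17A replicate 1 (0.14) and without IL-36γ replicate 2 (0.09), none of which was called in either form. Leaving out each library moved the interaction of Defb4 between -1.48 and 0.14.

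The number of the 9 genes called after IL-17A was 4, and 7 with DESeq2 and 2 in a fit of only these 2 groups. In these fits 407, 736 and 9 of all genes were called, respectively. With at least 10 counts demanded in every library, which removes Defb3, Defb4 and Lpo from the test, it was 5 instead of 8 after IL-36γ, 5 instead of 8 after both, 4 instead of 7 for both against IL-17A and 1 instead of 4 for IL-36γ against IL-17A. All genes called in these comparisons then numbered 937 instead of 1377, 1830 instead of 2603, 1211 instead of 1737 and 219 instead of 313. Without a filter, the count for IL-36γ against IL-17A was 7, where 403 of all genes were called. That for both against IL-36γ was 1 instead of 0 (also 1 with DESeq2), where 82 of all genes were called instead of 2 (121 with DESeq2). That of interactions was 3 instead of 1, against 2 with DESeq2 and 0 with RLE size factors or library size only. The interactions called over all genes were 462 without a filter, 107 in the main fit, 2490 with DESeq2, 38 with RLE size factors and 3 with library size only. The cause of these shifts was not tested. Leaving out each library in turn gave 2 to 4 genes after IL-17A, 8 to 8 after IL-36γ and after both, 0 to 1 for both against IL-36γ, 7 to 7 for both against IL-17A, 2 to 6 for IL-36γ against IL-17A and 0 to 3 interactions. In the same order, these omissions gave 11 to 913, 1047 to 1799, 2202 to 3170, 0 to 62, 1291 to 1990, 69 to 392 and 1 to 1534 calls over all genes. Over all genes, the number called after IL-17A was 407, but 11 without PBS replicate 3, 33 without IL-17A replicate 1 and 913 without PBS replicate 1.

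Same-numbered libraries of different groups correlated in their deviations from the group means with r from -0.199 to 0.352, with a median of 0.097 and over 0.1 in 9 of 18 pairs, and libraries of different numbers with a median of -0.05 and over 0.1 in 9 of 36 pairs. Since not every same-numbered pair was over 0.1, the numbers were not taken as pairs. This rule is strict, and whether same-numbered libraries shared a batch was not tested. The replicate block gave 4, 8 and 8 genes called after IL-17A, IL-36γ and both, 0, 7 and 4 in the comparisons between treatments and 1 interaction. With it 527, 1435 and 2625 of all genes were called after IL-17A, IL-36γ and both, and 0, 1791 and 328 in the comparisons between treatments. Its interactions called over all genes were 883 in place of 107. At this depth Camp, with 2 to 19 counts, and Defb3 and Defb4 in PBS, with 1 to 7 counts, are measured with the largest counting error.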
